A study of Mus musculus with 2 samples.

Results

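The 5 genes described here encode the receptor activity-modifying proteins (Ramp1, Ramp2 and Ramp3), the receptor they partner (Calcrl) and the peptide adrenomedullin (Adm). They are a named list selected on their measured levels by cell class and their differences between these 2 libraries, and all 5 were found among the 31055 features of both count matrices. Their levels and ratios are therefore descriptions. The cells came from the periosteum, the sheet of tissue that covers bone, of Prx1Cre;mTmG mice. One library was made at day 3 after a tibial fracture and the other from uninjured mice (day 0); both carry the same Cre and reporter alleles. Cre under the Prx1 promoter, which is active in limb mesenchyme, switches a cell and its descendants from tdTomato to EGFP for good, so EGFP marks origin and not a cell state. Per the labels' protocols, cells were grown out of tissue explants before sequencing, although the design text speaks of no expansion. The number, age and sex of the mice are not given in the sources used here.

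RAMPs are single-pass membrane proteins that carry the calcitonin receptor-like receptor, the product of Calcrl, to the cell surface and set which peptide it binds. With RAMP1 the pair binds calcitonin gene-related peptide, a product of sensory nerves, and with RAMP2 or RAMP3 it binds adrenomedullin. The pairs signal mainly through Gs and cyclic AMP. Calcrl and Ramp2 are best known from endothelium, sensory nerves with calcitonin gene-related peptide run in the periosteum, and Adm is a secreted vasodilator peptide whose gene responds to hypoxia.

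After filtering, 12573 cells of the day 3 library and 4269 cells of the uninjured library were kept, with a median of 7449 and 19397 unique transcripts (UMIs) per cell. Clusters formed 3 classes. EGFP lineage cells (3277 at day 3, 2191 uninjured) were clusters rich in EGFP and low in macrophage markers. In them 10 of 10 mesenchymal markers reached 10 CPM in each library, CPM being UMIs per 1000000 of the class total. Of 8 macrophage markers, 0 reached 10 CPM in lineage cells at day 3 and 3 did uninjured. These were C1qa, C1qb and C1qc, at 16.9, 38.7 and 19.8 CPM. C1q macrophages numbered 4186 at day 3 and 1129 in the uninjured library, with 8 of 8 macrophage markers at 10 CPM in each; their clusters were 1, 7, 8 and 10 at day 3 and 4 in the uninjured library. Osteoclasts numbered 442 and 76, and 6 of 7 osteoclast markers reached 10 CPM, Calcr being the exception. Different clusters held most of the lineage cells and macrophages in the 2 libraries, while all osteoclasts were in cluster 13. Lineage clusters 3, 6, 9 and 23 were of day 3, clusters 5, 12 and 16 were uninjured, and cluster 19, led by contractile genes, was the one with at least 50 cells of each. Among their 10 leading genes cluster 6 had 1 basophil marker (Mcpt8), cluster 16 had 2 osteoblast markers and cluster 23 had 3 chondrocyte markers, so values are also given by cluster and without these 3. EGFP-rich clusters that also carried macrophage markers, 15 (407 cells, day 3) and 11 (642 cells, uninjured), were left out of the lineage class. The libraries shared 3 cell barcodes. Xist, the transcript of the inactive X, was found in 74.4% of lineage cells at day 3 and 0.228% in the uninjured library, and median mitochondrial shares were 4.36% and 2.55%. With 1 library a group, mouse, library and culture cannot be told apart from injury, and no test between groups was possible. Cells with no Xist UMI and at least 1 Y-linked UMI were taken as male. Stray transcripts or a missed Xist UMI can mislead this rule. By it the day 3 library held 482 male lineage cells, so sex overlapped in part. Values in male cells alone are given where they moved. Intervals below are 95% and cover counting error only.

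Ramp3 was the member that differed most between the libraries in lineage cells. Its level was 58.9 CPM at day 3 (6616 UMIs, exact Poisson interval 57.5 to 60.3), against 4.13 CPM in the uninjured library (236 UMIs, 3.62 to 4.70). The ratio was 14.2 (exact conditional binomial interval 12.5 to 16.3). RAMP3 lets the calcitonin receptor-like receptor bind adrenomedullin and alters how the receptor is recycled after uptake. A 2-fold difference was called where the larger of the 2 levels was 10 CPM or above. Among the 8119 lineage genes that met this minimum, 17.2% were called higher at day 3 and 6.4% were called lower, and their median log2 ratio was 0.18. Only Ramp3 and Adm among the members reached 10 CPM in a lineage library. Ramp3 was the 1 of them past 2-fold, on the higher side.

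All 3 large lineage clusters of day 3 had Ramp3 at a similar level: clusters 3, 6 and 9 had 62.2, 56.4 and 60.1 CPM. Uninjured clusters 5, 12 and 16 had 4.23, 5.15 and 1.59 CPM. These day 3 clusters all stood above the uninjured ones. Within cluster 19, which both libraries share, Ramp3 stood at 29.6 CPM at day 3 (65 UMIs) and 6.52 CPM in uninjured cells (6 UMIs, 2.39 to 14.2), a ratio of 4.55. Cluster 23, shallow and led by cartilage genes, held 1 Ramp3 UMI. Without clusters 6, 16 and 23 the ratio was 12.9, and in male cells alone (482 at day 3, 1823 uninjured) it was 16.6 for Ramp3, with 0.181 for Ramp2. Day 3 lineage cells with a Xist UMI had 56.5 CPM, and day 3 male lineage cells had 72.6 CPM.

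Ramp3 was low in macrophages and osteoclasts. Macrophages had 1.99 CPM at day 3 (52 UMIs) and 0.162 CPM in the uninjured library (2 UMIs), a ratio of 12.3 with an interval of 3.23 to 104. No macrophage held more than 1 UMI of it. These macrophage levels were 3.39% and 3.93% of the lineage levels. EGFP and the 10 mesenchymal markers, which macrophages should lack, stood in macrophages at 2.60% to 4.80% of their lineage level at day 3 and at 2.54% to 7.54% in the uninjured library, so Ramp3 in macrophages lay within the range of stray transcripts. Osteoclasts had 3 Ramp3 UMIs at day 3 and 0 uninjured, where 3 counts would be 2.18 CPM. Outside the 3 classes, the mixed cluster 15 of day 3 had 58.6 CPM (515 UMIs), and the shallow cluster 0, led by Mmp12, had 6.77 CPM (25 UMIs, 4.38 to 9.99).

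**Figure D1:**
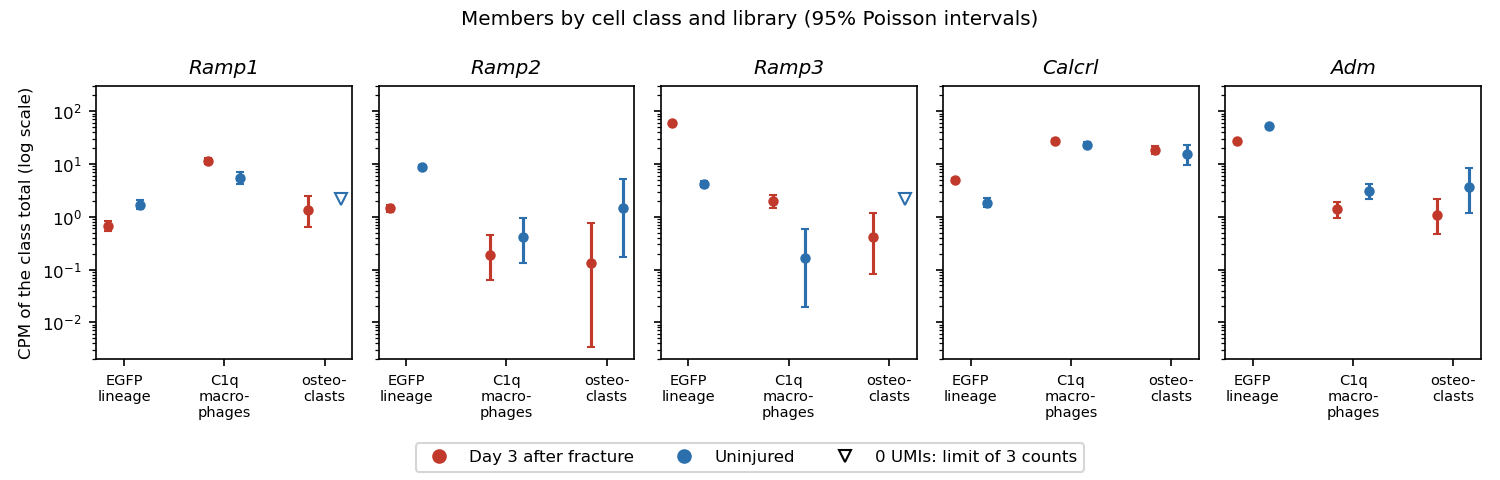
Level of each member in CPM of the class total (vertical axis, log scale) in EGFP lineage cells, C1q macrophages and osteoclasts, with day 3 left of uninjured in each pair; bars are 95% Poisson intervals and open triangles mark 0 UMIs, at the level of 3 counts. Ramp3 and Adm stand highest in lineage cells (58.9 and 27.0 CPM at day 3, 4.13 and 51.6 CPM uninjured), while Calcrl stands highest in macrophages (27.3 and 23.4 CPM).

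Ramp3 was unevenly spread over lineage cells at equal depth. Cells were thinned at random to 15000 UMIs, which left 2747 cells at day 3 and 1953 uninjured. Of these, 38.4% had a Ramp3 UMI at day 3 (Clopper-Pearson interval 36.5 to 40.2) and 4.35% in the uninjured library (3.49 to 5.35). If every cell had the mean level, Poisson counts would give 60.7% and 6.25%. The variance over the mean was 3.55 at day 3 and 2.05 uninjured, where an even level gives a value near 1. Within day 3 clusters 3, 6 and 9 taken singly this quotient was 3.67, 3.80 and 2.97, so the unevenness was also present inside clusters. Unthinned, 1077 day 3 cells held 2 or more Ramp3 UMIs and 471 held 1, and the highest cell held 39. Uninjured lineage cells included 51 with 2 or more, 84 with 1 and a highest count of 8. At 3000 UMIs per cell the share with Ramp3 was 13.3% at day 3 and 1.01% uninjured in lineage cells, beside 0.713% and 0.0910% in macrophages; median depths before thinning were 33252 and 24194 UMIs in lineage cells, and 5957 and 10554 UMIs in macrophages.

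Ramp2, whose product forms the main adrenomedullin receptor of blood vessels with Calcrl, went the other way. Lineage cells had 1.45 CPM at day 3 (163 UMIs, 1.24 to 1.69) and 8.88 CPM in the uninjured library (507 UMIs, 8.12 to 9.69), a level 6.12-fold lower at day 3 (interval 5.12 to 7.35). Both levels were under 10 CPM, the minimum set for a 2-fold call. Most uninjured Ramp2 was in cluster 5 with 15.4 CPM (390 UMIs), a cluster led by matrix genes such as Comp and Aspn and by Cxcl12. Cluster 12 had 4.67 CPM, and cluster 16, led by the osteoblast genes Ibsp and Bglap2, had 1.78 CPM. At day 3 clusters 3, 6 and 9 ran between 1.08 and 1.85 CPM, all lower than clusters 5 and 12. The uninjured cluster 16 (interval 1.06 to 2.82) lay inside that span. The cartilage-led cluster 23 had 33.5 CPM, but from 7 UMIs (interval 13.5 to 69.1). With equal weight per cell, which raises the part of such shallow cells, the ratio was 0.308 in place of 0.163. In the annotation Ramp2 overlaps Vps25 on the same strand, so how reads were split between the 2 genes is uncertain. Vps25, an endosomal sorting gene, had 1.82 CPM at day 3 and 3.35 CPM uninjured. Macrophages had 5 Ramp2 UMIs in each library, and osteoclasts had 1 at day 3 and 2 uninjured.

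Ramp1 was rare in lineage cells, with 0.676 CPM at day 3 (76 UMIs) and 1.70 CPM uninjured (97 UMIs), a ratio of 0.398 (0.291 to 0.543). Without clusters 6, 16 and 23 it was 0.547, and without removal of doublets 0.676. The highest uninjured lineage level was 4.36 CPM in the osteoblast-led cluster 16. In macrophages, Ramp1 reached 11.4 CPM at day 3 (298 UMIs, 10.2 to 12.8), against 5.44 CPM in the uninjured library (67 UMIs, 4.21 to 6.91). That ratio of 2.10 (1.61 to 2.78) has to be read against a general shift, since 33.1% of 8277 genes were called higher in day 3 macrophages and 4.43% lower, with a median log2 ratio of 0.65. With scaling by trimmed means (TMM) these calls numbered 1065 higher and 1074 lower in place of 2738 and 367. Over that median the Ramp1 ratio was 1.34, and with TMM it was 1.52, short of 2-fold. Day 3 macrophage clusters 10, 8, 7 and 1 had 3.38, 7.13, 10.6 and 21.6 CPM of Ramp1, and the uninjured cluster 4, at 5.46 CPM, lay inside that span. Osteoclasts had 10 Ramp1 UMIs at day 3 and 0 uninjured.

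The highest Ramp1 levels lay outside the 3 classes, in the day 3 library. Cluster 20, led by the granule genes Mpo, Elane, Prtn3 and Ctsg, had 250 CPM (933 UMIs), and cluster 22, led by Fcnb, S100a8, S100a9 and Camp, had 252 CPM (324 UMIs). Cluster 14, with Ccr2 and Ly6c2 among its leading genes, had 110 CPM, and cluster 18, with Retnlg, Ltf and Lcn2, had 116 CPM. Unthinned, 84.2% of the 253 cells of cluster 20 held a Ramp1 UMI. The uninjured library had no more than 8 cells in any of these 4 clusters, so no ratio was formed.

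Among the 3 classes the level of Calcrl, the shared receptor subunit, was highest in macrophages in both libraries. Macrophages had 27.3 CPM at day 3 (712 UMIs, 25.3 to 29.4) and 23.4 CPM uninjured (288 UMIs, 20.8 to 26.2). Osteoclasts had 18.6 CPM at day 3 (137 UMIs) and 15.3 CPM uninjured (21 UMIs, 9.45 to 23.3). The ratios were 1.17 (1.02 to 1.34) in macrophages and 1.22 (0.766 to 2.03) in osteoclasts. Relative to the median gene the macrophage value was 0.744, and with TMM scaling it was 0.844, so the scaling decides its direction. Of 7637 osteoclast genes, 18.8% were called higher at day 3 and 3.1% lower (663 and 509 genes with TMM, in place of 1436 and 237). Calcrl was the only member there to reach 10 CPM, and it was called in neither direction.

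Among other myeloid clusters of day 3, Calcrl was highest in cluster 2 at 55.4 CPM (817 UMIs), whose leading genes Cd74, H2-Aa and H2-Ab1 present antigen, and it had 28.7 CPM in cluster 0. The uninjured cluster 21 had 30.9 CPM. Day 3 macrophage clusters 7, 1, 8 and 10 had 13.5, 24.3, 32.5 and 37.2 CPM of Calcrl, and the uninjured cluster 4 had 23.2 CPM. Clusters that were low in Ramp1 among these 4 of day 3 (8 and 10) were the higher ones in Calcrl.

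Lineage cells had less Calcrl: 5.04 CPM at day 3 (566 UMIs, 4.63 to 5.47) and 1.84 CPM uninjured (105 UMIs). The ratio was 2.74 (2.22 to 3.41), with both levels under 10 CPM. Clusters 3, 6 and 9 had 5.12, 4.83 and 5.59 CPM, and uninjured clusters 5, 12 and 16 had 1.82, 2.16 and 1.39 CPM, so the day 3 values were all the higher ones. Lineage Calcrl was 18.4% of the macrophage level at day 3 and 7.87% uninjured. The 8 macrophage markers stood in lineage cells at 0.297% to 1.25% and 0.742% to 2.13% of their macrophage level, below both values. Including the mixed clusters 15 (9.32 CPM) and 11 (11.3 CPM) brought the ratio to 1.41, and per-cell gates on EGFP brought it to 1.57. Endothelial markers were low in lineage cells: 0 of 8 reached 10 CPM at day 3 and 1 of 8 (Egfl7) in uninjured cells, their summed level being 14.96 CPM and 11.7 CPM. Egfl7, at 6.33 CPM and 10.8 CPM, made up much of both sums. Of the other 7, most were higher at day 3, as lineage Calcrl was: Cdh5 had 564 UMIs at day 3 and 3 uninjured, Esam 165 and 5, and Kdr 140 and 18. Pecam1 had 44 and 9, Emcn 44 and 10, Cldn5 6 and 0, and Tek 7 and 6. Of the 3 lymphatic endothelial markers none reached 10 CPM, and they summed to 6.12 CPM at day 3, nearly all Flt4, and 0.455 CPM uninjured. No cluster was led by endothelial markers, and the part of such transcripts in the Calcrl and Ramp values was not tested.

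**Figure D2:**
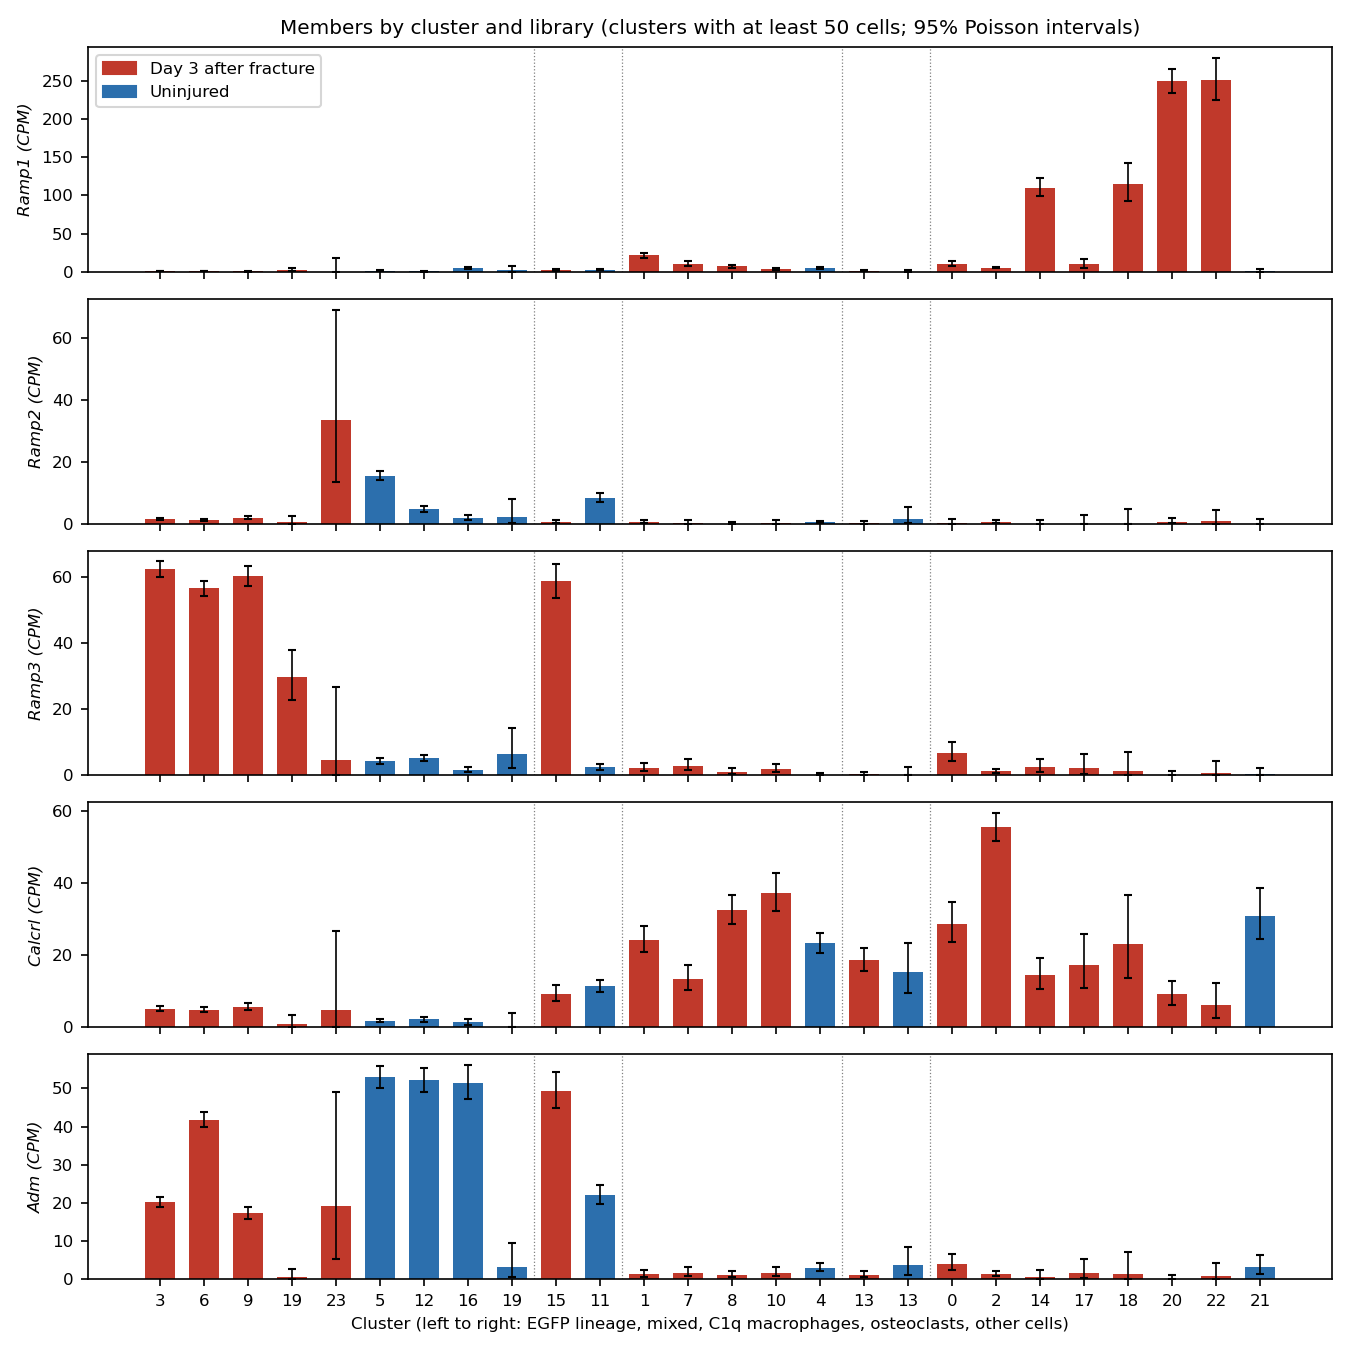
Level of each member in CPM (vertical axes, linear) in every cluster with at least 50 cells of a library, red for day 3 and blue for uninjured, with 95% Poisson intervals; dotted lines part the classes named under the axis. Ramp3 is near 60 CPM in clusters 3, 6, 9 and 15 of day 3 and below 7 CPM in all uninjured clusters, and Ramp1 peaks at 250 and 252 CPM in clusters 20 and 22.

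Adm, the gene of the peptide ligand, was a lineage gene in both libraries. Lineage cells had 27.0 CPM at day 3 (3032 UMIs, 26.0 to 28.0) and 51.6 CPM uninjured (2948 UMIs, 49.8 to 53.5). The ratio of 0.523 (0.497 to 0.550) fell just short of 2-fold lower. It was 0.478 with equal weight per cell, 0.500 with TMM and 0.358 without clusters 6, 16 and 23, all 3 past 2-fold. Uninjured clusters 5, 12 and 16 were alike, with 53.0, 52.2 and 51.5 CPM. Day 3 clusters were not: cluster 6, whose leading genes include Bmp2 and Spp1, had 41.8 CPM, while cluster 3, led by mitotic genes, had 20.1 CPM and cluster 9 had 17.3 CPM. Contractile cluster 19 had nearly none in either library, with 1 UMI at day 3 and 3 uninjured. The mixed clusters had 49.4 CPM (cluster 15, day 3) and 22.1 CPM (cluster 11, uninjured), and with them in the class the ratio was 0.628. Macrophages had 1.38 CPM at day 3 and 3.08 CPM uninjured, and osteoclasts 1.09 and 3.63 CPM. As shares of the lineage level the macrophage values were 5.12% and 5.97%, the second inside and the first just above the range given for stray lineage transcripts.

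Adm was also unevenly spread at equal depth. At 15000 UMIs per cell, 19.9% of day 3 and 31.4% of uninjured lineage cells had an Adm UMI, where an even level would give 32.2% and 52.3%. The variance over the mean was 2.97 and 4.27. Calcrl was at 1.04 and 1.01 by this measure, which counts at its low level cannot tell from even. Ramp2 was at 1.08 and 2.27. This quotient grows with the mean level, so members are not ranked by it.

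**Figure D3:**
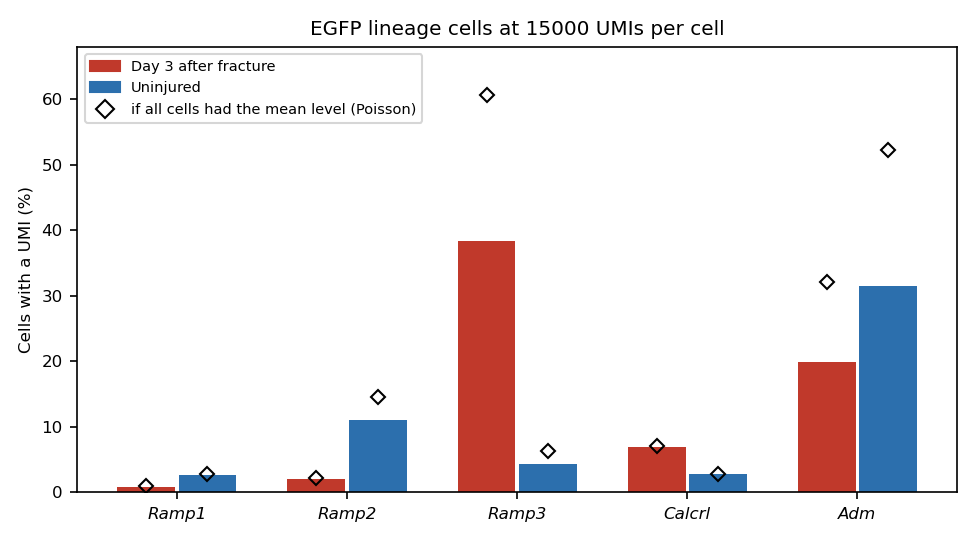
Share of EGFP lineage cells with at least 1 UMI of each member after thinning to 15000 UMIs per cell (vertical axis, percent; red day 3, blue uninjured), with diamonds at the share that Poisson counts would give if all cells had the mean level. Bars for Ramp3 at day 3 (38.4% against 60.7%) and Adm in uninjured cells (31.4% against 52.3%) fall well below their diamonds, while those for Calcrl lie on them.

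The promoters of Ramp3 and Adm are shown because these 2 members carry most lineage UMIs of the set and because hypoxia genes were measured beside them. Each is the 250 bases before the RefSeq start of the gene, plus strand, assembly GRCm38.p6. Ramp3 lies at chr11:6658521-6677475 (protein coding, plus strand) and its window at chr11:6658283-6658532, whose last bases overlap the start of the annotated gene. Adm lies at chr7:110627661-110629820 (protein coding, plus strand) and its window at chr7:110627407-110627656. Capitals mark GCGTG, 1 of the 2 core motifs of hypoxia-inducible factors searched, on either strand (CACGC on the minus strand).
Ramp3: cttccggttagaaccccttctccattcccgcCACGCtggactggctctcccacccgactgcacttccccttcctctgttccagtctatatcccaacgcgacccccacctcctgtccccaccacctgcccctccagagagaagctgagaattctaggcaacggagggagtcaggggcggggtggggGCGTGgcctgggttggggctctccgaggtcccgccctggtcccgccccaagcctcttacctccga
Adm: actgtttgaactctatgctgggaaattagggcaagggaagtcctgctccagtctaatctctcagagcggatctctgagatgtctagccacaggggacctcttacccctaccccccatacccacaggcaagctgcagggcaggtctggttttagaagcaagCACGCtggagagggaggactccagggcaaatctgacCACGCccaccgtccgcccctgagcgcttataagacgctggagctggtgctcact
Each window held 2 matches of GCGTG, with no overlap between them, and none of ACGTG, the other core. Of 32851 windows of this length, 28.2% held GCGTG and 16.6% ACGTG. Neither window had the core TGACG of the cyclic AMP response element (in 17.8% of windows) or the AP-1 site TGANTCA (6.75%), both strands searched. Ramp1 (chr1:91179822-91225196) and Calcrl (chr2:84330626-84425411, minus strand) had no match to any of the 4 motifs in their windows. A match is a run of letters and not a binding site.

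Joint detection of Calcrl with a Ramp in 1 cell, which both kinds of receptor need, was rare at these depths. At 15000 UMIs per cell, 80 of 2747 day 3 lineage cells (2.91%, 2.32 to 3.61) held both Calcrl and Ramp3, against 1 of 1953 uninjured cells (0.0512%, 0.00130 to 0.285). Ramp3 was in 42.1% of the 190 day 3 cells with Calcrl (35.0 to 49.5) and in 38.1% of those without it (36.2 to 40.0), and these intervals overlap. Unthinned, the shares were 56.3% of 462 cells and 45.8% of 2815, with intervals of 51.6 to 60.9 and 43.9 to 47.6 that do not overlap; depth differs between cells there, and its part was not tested. Any Ramp was found in 43.2% of Calcrl cells at day 3 (82 of 190) and in 12.7% in the uninjured library (7 of 55, 5.27 to 24.5). Of the Calcrl cells, 80 held Ramp3, 2 Ramp2 and 2 Ramp1 at day 3, whereas 1 held Ramp3, 4 Ramp2 and 2 Ramp1 in the uninjured library, where the counts are too few to compare.

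**Figure D4:**
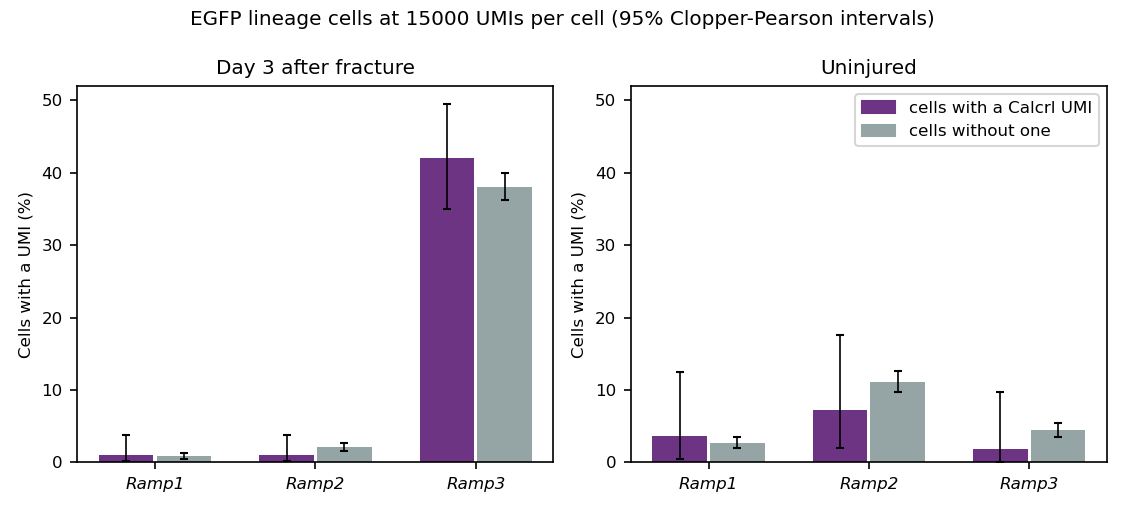
Share of EGFP lineage cells with a UMI of each Ramp (vertical axis, percent) among cells with a Calcrl UMI (purple) and without one (grey), at 15000 UMIs per cell, day 3 on the left and uninjured on the right, with 95% Clopper-Pearson intervals. Ramp3 is near 40% on both sides of the Calcrl split at day 3 (42.1% and 38.1%), and in every pair the intervals overlap.

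In macrophages most cells with Calcrl showed no Ramp. Unthinned, 595 of 4186 cells at day 3 and 240 of 1129 uninjured had a Calcrl UMI, and of these 40 (6.72%, 4.85 to 9.04) and 15 (6.25%, 3.54 to 10.1) had a UMI of any Ramp. Ramp1 made up nearly all of them, with 36 and 14 cells. It was in 6.05% of Calcrl cells and 6.52% of the others at day 3, and in 5.83% and 5.40% in the uninjured library. In osteoclasts 4 of 99 Calcrl cells at day 3 and 1 of 16 uninjured held any Ramp. Cluster 20, with its high Ramp1, had Calcrl in 30 of 253 cells, of which 27 (90.0%, 73.5 to 97.9) also held Ramp1. Of the cells in that cluster without Calcrl, 83.4% held Ramp1. In cluster 2, the highest in Calcrl, 33 of 479 Calcrl cells (6.89%) held any Ramp. A missing UMI does not show that a transcript is absent, since median depth was 5459 UMIs in day 3 and 10354 UMIs in uninjured macrophages.

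Ligand and receptor transcripts met in few single cells. Calcrl, a Ramp and Adm were all present in 14 of 2747 day 3 lineage cells (0.510%) and 1 of 1953 uninjured ones at 15000 UMIs. Adm and Ramp3 were both found in 202 day 3 cells (7.35%, 6.41 to 8.39) and 27 uninjured cells (1.38%, 0.913 to 2.01). Ramp2 and Ramp3 were both found in 23 (0.837%) and 7 (0.358%). Singly, Ramp3 was in 38.4% of day 3 and 4.35% of uninjured cells. Adm was in 19.9% and 31.4%, and Ramp2 in 2.04% and 11.0%. Joint shares rise and fall with these single shares, and joint detection beyond them was not tested. Among the 3 classes, the level of Adm was highest in lineage cells and that of Calcrl in macrophages, in both libraries.

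Other genes of the family were counted from lists chosen with earlier results in view. Of 8 ligand and peptide-processing genes 3 reached 10 CPM in lineage cells. Of these, 0 were called higher and 1 called lower at day 3, beside 17.2% and 6.4% of all genes. The 1 called was Mme, the peptidase neprilysin, at 0.231 CPM (26 UMIs) against 10.6 CPM uninjured (606 UMIs). With TMM 2 were called lower, Adm being the other. Pam, which amidates adrenomedullin and related peptides, had 151 CPM at day 3 and 90.6 CPM uninjured. Adm2, a relative of Adm that acts on the same receptors, had 12 UMIs at day 3 and 155 uninjured. Calca, the gene of calcitonin and calcitonin gene-related peptide, had 2 and 11 UMIs. Of 8 receptor and scavenger genes 3 reached the minimum in lineage cells. Ramp3 was the 1 past 2-fold, on the higher side, beside 17.2% of all genes. Ackr3, a scavenger of adrenomedullin, had 10.2 CPM at day 3 and 10.3 CPM uninjured in lineage cells, and Calcr, the calcitonin receptor, had 45 and 11 UMIs in osteoclasts (6.10 and 7.99 CPM) and 2 and 1 in lineage cells. Among 11 other receptors reported to bind RAMPs, Pth1r, the parathyroid hormone receptor, alone reached 10 CPM in lineage cells. It had 2.00 CPM at day 3 and 29.1 CPM uninjured (ratio 0.0689), a call on the lower side, beside 6.4% of all genes. Pth1r was among the 10 leading genes of the osteoblast-led cluster 16, which held 325 uninjured cells and 1 of day 3. The part of that cluster in the ratio was not tested.

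The list of cyclic AMP signalling genes held Gs itself and genes that carry or limit its signal. It had calls on the higher side and none on the lower. In lineage cells 13 of its 26 genes in the matrices reached 10 CPM. Of these, 6 were called higher and 0 lower, beside 17.2% and 6.4% of all genes, with a median log2 ratio of 0.95 beside 0.18. With TMM 5 were called higher and 0 lower. Gnas, the gene of the Gs alpha subunit, had 944 CPM at day 3 and 235 CPM uninjured (ratio 4.02), and the adenylyl cyclase gene Adcy7 had 29.0 and 8.11 CPM (3.58). Prkacb, a catalytic subunit of protein kinase A, had 58.7 and 22.7 CPM, and Grk2, a kinase that desensitises receptors, 47.5 and 19.7 CPM. Macrophages had 16 such genes at 10 CPM, 9 of them called higher and 0 lower, beside 33.1% and 4.43% of all genes, with a median of 1.06 beside 0.65. With TMM it was 4 of 15 higher and 0 lower. The shares of all genes were counted without TMM, which changes them too, so TMM counts cannot be read against them. In osteoclasts 1 of 13 was called higher, a smaller share than the 18.8% of all genes, and 0 lower. The median was 0.54 beside 0.44, and with TMM 0 of 13 were called. Of 10 genes that respond to cyclic AMP, 4 reached 10 CPM in lineage cells. Of these, 2 were called higher and 0 lower, beside 17.2% and 6.4% of all genes, with a median of 0.54 beside 0.18. The 2 called were Crem (24.1 CPM against 10.7 CPM) and Dusp1 (54.5 CPM against 25.4 CPM). Nr4a2 (15.8 CPM and 16.1 CPM) and Fos (10.3 CPM and 11.4 CPM) had ratios of 0.981 and 0.903. In macrophages 1 of 4 was called higher and 0 lower, beside 33.1% and 4.43% of all genes. In osteoclasts 0 of 1 was called. With TMM 2 of 4 were higher in lineage cells and 0 of 3 in macrophages.

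Hypoxia genes, set beside Adm, had no common direction in lineage cells. Of 9 at 10 CPM 1 was called higher and 2 lower, beside 17.2% and 6.4% of all genes, with a median log2 ratio of 0.04. Vegfa, a growth factor for blood vessels, had 92.4 CPM at day 3 and 8.37 CPM uninjured (ratio 11.0). Bnip3, a mitophagy gene, had 32.0 and 88.2 CPM, and Ndrg1 had 2.63 and 12.6 CPM. In macrophages 6 of 12 were called higher and 1 lower, beside 33.1% and 4.43% of all genes, with a median of 0.94 beside 0.65. In osteoclasts 3 of 8 were called higher and 0 lower, beside 18.8% and 3.1%, with a median of 0.76 beside 0.44. With TMM 3 were higher and 1 lower in macrophages, and 1 and 0 in osteoclasts. The shares of all genes were counted without TMM, which changes them too, so these TMM counts cannot be read against them.

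Likeness to each member was measured as Pearson's r of log2(CPM + 1) over 26 cluster sums of at least 50 cells, among 10620 genes. These sums share 2 libraries, so r is a description. Nearest to Ramp3 were Prkg2, a protein kinase activated by cyclic GMP (r = 0.945), the protease inhibitor Cst6 (0.942) and the Wnt modulator Dkk2 (0.938). Ramp2 was nearest to the intermediate filament gene Synm (0.958), to Dact1 (0.957) and to the matrix gene Abi3bp (0.953). The highest of the 26 sums for Ramp2, 33.5 CPM, was that of the shallow cluster 23, from 7 UMIs. These likenesses may therefore lean on few counts. Adm was nearest to Ddit4l (0.960), Cdc42ep1 (0.959) and the matricellular gene Cyr61 (0.957). For Calcrl they were Wdfy2 (0.918), the membrane skeleton gene Epb41 (0.915) and the receptor gene Gpr132 (0.912). For Ramp1 they were the haematopoietic factor Nfe2 (0.960), Dgkg (0.952) and the myeloid receptor Trem3 (0.942). Between members, r for Adm was 0.639 with Ramp2, 0.523 with Ramp3, -0.595 with Ramp1 and -0.473 with Calcrl. For Calcrl it was -0.520 with Ramp2, -0.451 with Ramp3 and 0.258 with Ramp1. Among the Ramps it was -0.443 for Ramp1 with Ramp2, -0.398 for Ramp1 with Ramp3 and 0.162 for Ramp2 with Ramp3.

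**Figure D5:**
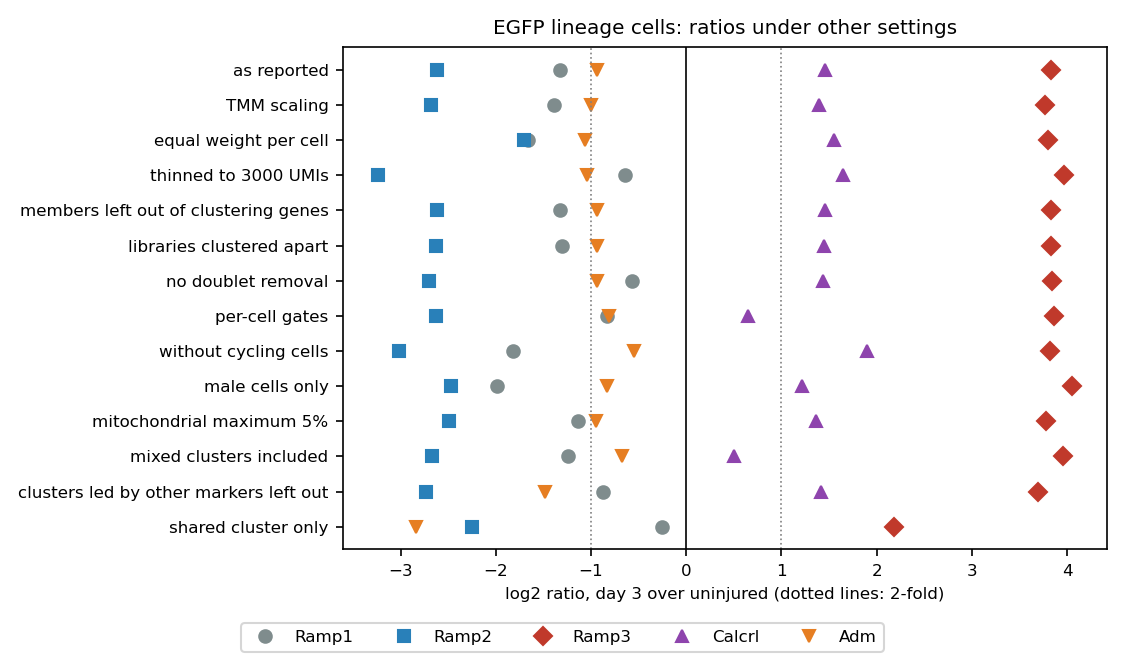
Log2 ratio of each member in EGFP lineage cells, day 3 over uninjured (horizontal axis), as reported and under each alternative (rows), with dotted lines at 2-fold. Ramp3 stays right of 2 (2.18 to 4.05), Ramp2 and Adm stay left of 0, and Calcrl runs from 0.50 to 1.89. In the row of the shared cluster Ramp2 rests on 1 and 2 UMIs (day 3, uninjured) and Adm on 1 and 3.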

How the data were processed

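Droplet libraries (10x 3' chemistry, v.2 per the labels' protocols) were deposited by the authors as raw UMI counts for each gene in each barcode. The submitters' processing notes name Cell Ranger, Seurat 4.0.1 and mm10. The labels give the molecule as DNA, and their protocols describe growth to confluence where the design text says no expansion. The day 3 library held 16332 barcodes and 227191961 UMIs, and the uninjured one 4573 and 94034112. Barcodes under 500 genes or 1000 UMIs were removed (1412 and 69), then those over 10% mitochondrial (457 and 73). Scrublet's automatic threshold marked 0 and 0, so the highest scores were removed at 0.8% per 1000 barcodes (1890 and 162).

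Cells were scaled to 10000 and clustered together without integration (scanpy 1.11.5, 2000 variable genes, 30 components, 15 neighbours, Leiden resolution 1). Ramp1, Ramp2 and Adm were among the variable genes. Lineage clusters had EGFP at 25% or more of the highest cluster and macrophage markers below 5% of theirs. In macrophage clusters the macrophage list had the highest mean level of the marker lists. Their C1q genes stood at 25% or more of the highest cluster and EGFP below 10% of it. Cluster 0 (1463 day 3 cells) met these limits. It was left out because it was shallow and had no macrophage marker among its 10 leading genes. These thresholds were set after the clusters were seen. Members and lists were chosen with earlier results of these data known. Named genes were the members, the 3 genes most like each, and list genes at 10 CPM or more. Other list genes, marker genes and leading genes were picked after their values were seen.

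UMIs were summed by class and given as CPM. Positions are from GENCODE vM21 (GRCm38), which held 31011 of 31055 feature identifiers, and promoters from RefSeq, which matched 4 members. Shares are exact Clopper-Pearson; TMM factors came from edgeR 4.0.16. A difference was called at 2-fold with 10 CPM in the higher library. The ratio rule and intervals were run on simulated Poisson counts, which vary by counting error alone. That checks the computation and not how well the intervals suit these data. PCR and mouse-to-mouse variation are in no interval. 1 gene of the ligand list is not reported here.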

Additional observations from a re-analysis of the deposited data

Results flagged for a closer look

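Ramp1 moved in opposite directions between the libraries in 2 classes. Its log2 ratio, day 3 over uninjured, was 1.07 in macrophages and -1.33 in lineage cells. The difference was not tested, since each group is 1 library. The lineage value rests on 76 UMIs at day 3 and 97 in the uninjured library, in a day 3 library whose clusters 20 and 22 held 250 and 252 CPM of the gene, and the part of stray transcripts was not tested. Relative to the median gene of each class the values were 0.42 and -1.51.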

How the results depend on the processing

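No direction reversed in lineage cells for the 5 members, or for Ramp1 in macrophages, under any alternative run. Some of these values rest on few UMIs, as given below. Log2 ratios that moved in lineage cells were as follows. For Adm (-0.94 as reported) they were -1.07 with equal weight per cell, -1.04 thinned to 3000 UMIs, -0.81 with per-cell gates, -0.55 without cycling cells, -0.84 in male cells, -0.67 with mixed clusters, -1.48 without clusters led by other markers and -2.84 in the shared cluster alone. For Ramp1 (-1.33) they were -0.64 thinned, -0.56 without doublet removal, -0.83 with gates, -1.82 without cycling cells, -1.99 in male cells, -0.87 without other-led clusters and -0.25 in the shared cluster. For Ramp2 (-2.61) they were -1.70 with equal weight, -3.24 thinned, -3.02 without cycling cells and -2.25 in the shared cluster. UMIs in the shared cluster, day 3 then uninjured, were 1 and 3 for Adm, 4 and 2 for Ramp1 and 1 and 2 for Ramp2. Ramp1 had 9 and 10 thinned, and 8 and 84 in male cells. The shared-cluster counts of Adm, Ramp1 and Ramp2 and the thinned counts of Ramp1 are too few to show a direction. Ramp3 (3.83) gave 4.05 in male cells and 2.18 in the shared cluster. Calcrl (1.45) gave 0.65 with gates, 1.89 without cycling cells and 0.50 with mixed clusters, and had no value in the shared cluster, where uninjured cells held 0 UMIs. Ramp1 in macrophages (1.07) gave 0.60 with TMM, and was also short of 2-fold thinned (0.89), with the libraries clustered apart (0.87) and in male cells (0.77). The causes were not tested. In macrophages Calcrl (0.22) was -0.24 with TMM and -0.05 thinned, against 1.14 with gates. In osteoclasts Calcrl (0.28) was -0.44 without doublet removal, -0.33 thinned and -0.32 with the libraries clustered apart. The osteoclast class itself depended on processing. Its uninjured cells numbered 76 as reported, 252 without doublet removal and 243 with the libraries clustered apart. Its day 3 cells numbered 442, 572 and 535. Genes at least 2-fold higher in lineage cells numbered 1395, 531 with a minimum of 50 CPM and 5129 with none; those lower numbered 520, 219 and 3407. With TMM, macrophage genes higher and lower numbered 1065 and 1074 in place of 2738 and 367, and osteoclast genes 663 and 509 in place of 1436 and 237. Mixed, other-led and shared-cluster alternatives and the depth of 15000 UMIs were chosen after seeing the data. No paired analysis was possible because each group has 1 library. The depth limits shares of cells: unthinned, 47.2% of day 3 lineage cells had Ramp3, against 13.3% at 3000 UMIs.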
